A study of Homo sapiens with 9 samples.

Results

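MCF10A cells held in high calcium were set directly against MCF10A cells given transforming growth factor beta 3 (TGFb3), so that each gene is read as higher under one treatment or the other and the untreated cells are not the reference. MCF10A is an established, non-tumorigenic human breast epithelial line. The samples compared are 6 of the 9 in the series, 3 with high calcium and 3 with TGFb3. The other 3, untreated controls, enter the estimate of spread and the filter on low levels, and their levels are given beside some results. The high calcium cells received 10 mM calcium together with ionomycin, an ionophore that carries calcium across membranes (labelled 1 mM, a dose repeated here as labelled). The TGFb3 cells received 10 nM of the ligand (the protocol names TGFb1 and TGFb2 beside it, and the treatment given for each sample used here names TGFb3), and both treatments ran for 16 h. Every group, controls included, was kept in DMEM/F12 medium with horse serum, epidermal growth factor, hydrocortisone, cholera toxin and insulin. Calcium and ionomycin were always given together, so their effects cannot be told apart. The labels number the samples of a group without saying that they came from separate cultures, and a p-value here reflects no more than how the given samples scatter, possibly for technical reasons alone.

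The members of the comparison are gene symbols. Values of rows that carry the same symbol were summed, and of 56609 symbols the 13968 with a mean of at least 1 TPM (transcripts per 1000000, a share of each library corrected for gene length) over the 9 samples were tested. The symbols nearest that limit were AL157400.4 with a mean of 1.00117 TPM, inside, and HCG15 with 0.999 TPM, outside. Counts over all symbols and of many gene lists are given as deposited and in a second version. For it the 37 symbols that start with MT-, the RNAs of the mitochondrial genome, were left out and every sample was rescaled to the same total. That leaves 13931 symbols. This second version is called the rescaled one below. Counts and gene values without a rescaled figure beside them are as deposited. A log2 difference is the mean of log2(TPM + 1) in high calcium minus that in TGFb3, given with its standard error (n = 3 in each group), so a negative value means higher in TGFb3. A gene was called at a limma adjusted p under 0.05.

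Calcium is stored in the endoplasmic reticulum (ER), where chaperones that fold secreted proteins bind it. Disturbed folding activates the unfolded protein response through the sensors IRE1, PERK and ATF6, which raise chaperone genes through ER stress elements (ERSE) in their promoters and, by way of ATF4 and CHOP, genes of amino acid supply and cell death. TGF-beta ligands act through a pair of receptor kinases that phosphorylate SMAD2 and SMAD3. In epithelial cells these SMADs raise matrix, integrin and cytoskeletal genes and their own feedback inhibitors, and slow proliferation. In mammary and skin epithelium calcium is also a signal for junction assembly and differentiation.

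Markers of the labelled cell type were present in both groups. All 7 basal epithelial markers and all 5 general epithelial markers were at 1 TPM or more in each of the 6 samples. Of 4 fibroblast markers only DCN reached 1 TPM in all 6, with sums over the list of 7.52 to 8.32 TPM in high calcium and 12.4 to 15.3 in TGFb3. Of 6 endothelial markers only KDR did so (sums 11.7 to 12.6 and 1.67 to 2.51 TPM), with CDH5 and CLDN5 listed at 0 in all 9 samples. Of 8 leukocyte markers CD14 and CD68 did so (sums 53.0 to 74.5 and 10.8 to 15.6 TPM), with PTPRC, CD3E and NKG7 among those listed at 0 in all 9. No adipocyte marker did. In bulk RNA, fewer cells of a type and less RNA per cell cannot be told apart.

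Libraries differed in composition between the groups. RNA of the mitochondrial genome took 11.5 ± 0.371% of TPM in high calcium and 22.7 ± 0.588% in TGFb3 (SD, n = 3), a difference of -11.27 percentage points (exact permutation test, two-sided p = 0.1, the smallest that 3 against 3 allows). Symbols at 1 TPM or more numbered 14469 ± 38 in high calcium and 13578 ± 28.7 in TGFb3. All 4 nuclear or snoRNA-host noncoding RNAs used as a sign of RNA quality were called higher in high calcium: MALAT1 (log2 1.05 ± 0.16), NEAT1 (1.49 ± 0.12), GAS5 (1.38 ± 0.072) and SNHG1 (0.64 ± 0.083). Their part in the results below was not tested.

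Most genes differed between the treatments. As deposited, 9294 of 13968 symbols (66.5%) were called, 7038 of them higher in high calcium (50.4% of those tested) and 2256 higher in TGFb3 (16.2%). After rescaling, 8416 of 13931 (60.4%) were called, 5001 higher in high calcium (35.9%) and 3415 higher in TGFb3 (24.5%). The share of calls that lay on the high calcium side was thus 75.7% as deposited and 59.4% rescaled. Scaling the samples by median ratios or by quantiles brought it to 49.96% and 51.1%. The median log2 difference of all tested symbols was 0.27 as deposited, 0.09 rescaled and 0.01 under either of these scalings. Differences below are read against these medians, and counts of list members against the shares of all tested symbols. Median ratios and quantiles set the samples to a common centre. Their near-even split and small median are thus largely fixed by the method. Of 52 gene lists with more than 5 tested members, leaving out those of the mitochondrial genome, 15 changed the side with more calls under the rescaling, median ratios or quantiles: cathepsins, lysosomal membrane proteins, autophagy, MiT/TFE, galectins, calcineurin, cytosolic heat shock, desmosome, STAT3, MAPK, IGF, glycolysis, cytosolic ribosomal protein, proteasome and metallothionein genes. For these lists the text reads single members rather than a direction. The median of 14 lists changed sign, among them calcium pumps and laminins, which kept the side with more calls. Annexins under median ratios and Notch genes as deposited had equal counts on both sides.

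Between the versions 7223 symbols kept their direction. The 2031 called only as deposited all lay on the high calcium side, and the 1190 called only after rescaling all lay on the TGFb3 side. Opposite calls were made for 3 genes, chosen for mention after their values were seen: DAZAP1 (log2 0.10 as deposited and -0.093 rescaled), EIF4H (0.12 and -0.080) and TMEM165 (0.093 and -0.10). Of the called symbols, 1498 were higher in high calcium by a log2 difference of 1 or more (10.7% of those tested), and 508 were higher in TGFb3 by as much (3.64%). The 3 high calcium and 3 TGFb3 values did not overlap for 9945 symbols (71.2%).

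**Figure D1:**
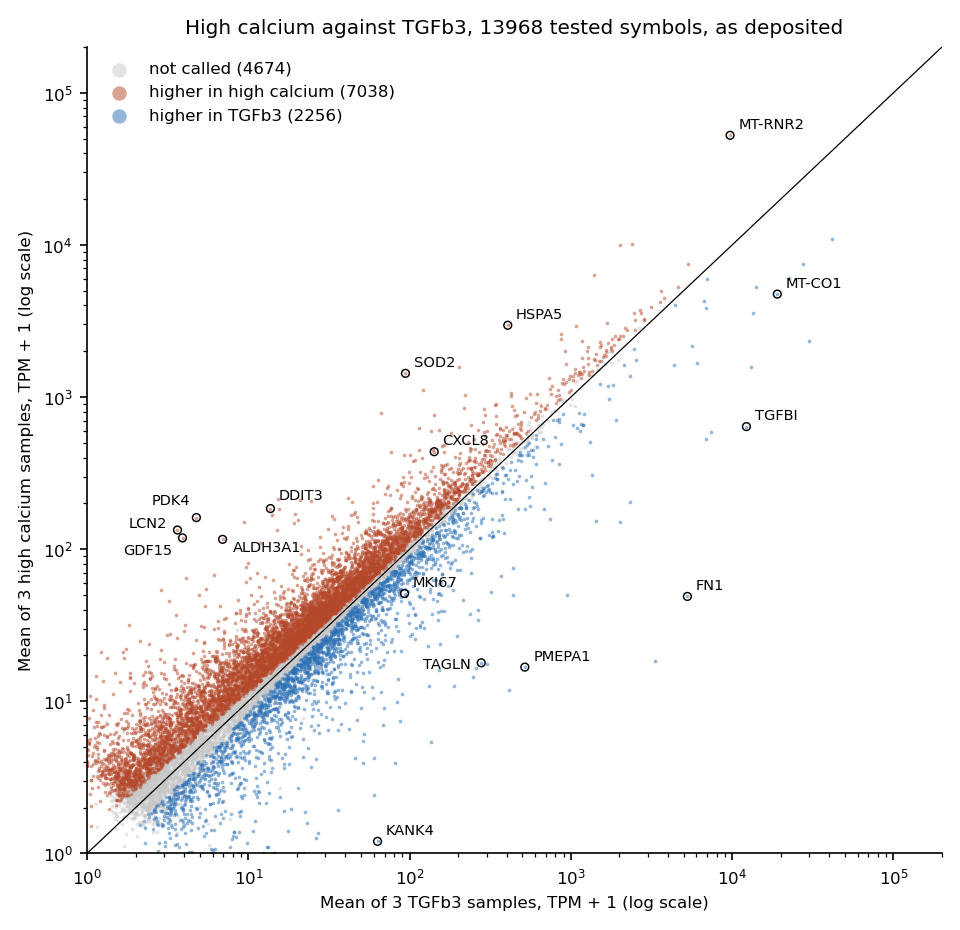
Mean TPM + 1 of each tested symbol over 3 TGFb3 samples (horizontal) against 3 high calcium samples (vertical), both on log axes, with called symbols in colour. More symbols lie on the high calcium side (7038) than on the TGFb3 side (2256), and FN1 and KANK4 are among those far from the diagonal on the TGFb3 side.

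Among the genes with large differences on the TGFb3 side were those of secreted matrix proteins. FN1 (chr2:215360440-215436172, hg38), fibronectin, stood at 49.02, 48.3 and 46.3 TPM in the high calcium samples and 5341, 5586 and 4902 TPM in the TGFb3 samples. Every TGFb3 sample lay far above every high calcium sample, and the high calcium samples lay close to the control mean of 47.7 TPM. The log2 difference was -6.75 ± 0.063 (limma adjusted p = 2.0e-12), which is 108-fold higher TPM + 1 in TGFb3. After rescaling it was -6.95.

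KANK4, a gene of an ankyrin-repeat protein of the actin cytoskeleton, was at 0.182, 0.186 and 0.2304 TPM in high calcium and 64.4, 63.2 and 59.2 TPM in TGFb3 (log2 -5.72 ± 0.10). PMEPA1, a feedback inhibitor of SMAD signalling, was at 15.6, 15.2 and 16.5 TPM in high calcium and 487, 524 and 539.5 TPM in TGFb3 (log2 -4.95 ± 0.055). Both were separated without overlap, KANK4 from a level below 1 TPM. TGFBI, a matrix protein named for its induction by TGF-beta, was the most abundant of these genes, at 612, 635 and 668 TPM and 12647, 11956 and 12155 TPM (log2 -4.26 ± 0.050). The smooth muscle gene TAGLN (-3.97 ± 0.13), the collagen gene COL4A1 (-4.11 ± 0.052) and the metalloprotease gene ADAM19 (-3.84 ± 0.10) followed. Genes outside matrix and cytoskeleton were KCNJ15, a potassium channel (-4.38 ± 0.18), ALOX5AP, which serves leukotriene synthesis (-4.26 ± 0.18), CHRNA9, an acetylcholine receptor subunit (-3.93 ± 0.13), AMTN, which encodes the enamel protein amelotin (-4.33 ± 0.18), and DKK1, a secreted WNT inhibitor (-3.96 ± 0.078). SPRR2G was listed at 0 in all high calcium and control samples and at 24.4, 18.6 and 15.6 TPM in TGFb3, so no fold is given.

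On the high calcium side the leading genes were secreted and metabolic ones. LCN2 (chr9:128149071-128153455), which encodes the iron-chelator-binding lipocalin 2, was at 126, 132 and 139.5 TPM in high calcium and 2.59, 2.27 and 3.05 TPM in TGFb3, against a control mean of 9.06 TPM. PDK4 (chr7:95583499-95596491), a kinase that inactivates pyruvate dehydrogenase, was at 158, 159 and 163 TPM and 3.85, 2.82 and 4.61 TPM, against a control mean of 25.2. For both, the high calcium samples were above and the TGFb3 samples below the control mean. The log2 differences were 5.20 ± 0.084 (limma adjusted p = 5.1e-11) and 5.10 ± 0.11 (adjusted p = 4.6e-10), which is 36.9-fold and 34.3-fold higher TPM + 1 in high calcium, and 5.10 and 4.97 after rescaling.

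GDF15, a stress-induced cytokine of the TGF-beta superfamily, was at 119.7, 119 and 114 TPM in high calcium and 2.86, 2.7997 and 3.06 TPM in TGFb3 (log2 4.92 ± 0.073). IL24, a cytokine of the IL10 family, was at 31.4, 31.5 and 28.8 TPM and 1.38, 0.555 and 0.515 TPM (log2 4.15 ± 0.19). ALDH3A1, an aldehyde dehydrogenase, was at 109.7, 118 and 117 TPM and 6.45, 4.13 and 7.18 TPM (log2 4.09 ± 0.15). None of the 3 overlapped between the groups. SOD2, the mitochondrial superoxide dismutase, was the most abundant, at 1522, 1156 and 1613 TPM in high calcium and 105, 94.6 and 80.2 TPM in TGFb3 (log2 3.92 ± 0.17). The others of the leading 15 were HOGA1, an enzyme of hydroxyproline breakdown (4.26), SERPINB13, a keratinocyte serpin (4.01), STAT4 (3.97), TMEM125 (3.85), CLGN, an ER chaperone known from testis (3.83), ANKRD2 (3.81), DDIT3, which encodes CHOP (3.76), FGR, a SRC-family kinase (3.70), and CYP4B1, a cytochrome P450 (3.68). Strandedness of the counting is not given in the sources used here, so reads of genes that overlap another annotated gene, among them KANK4, PMEPA1, TAGLN, ADAM19, GDF15, HOGA1, ALDH3A1 and TMEM125, could be shared with it.

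**Figure D2:**
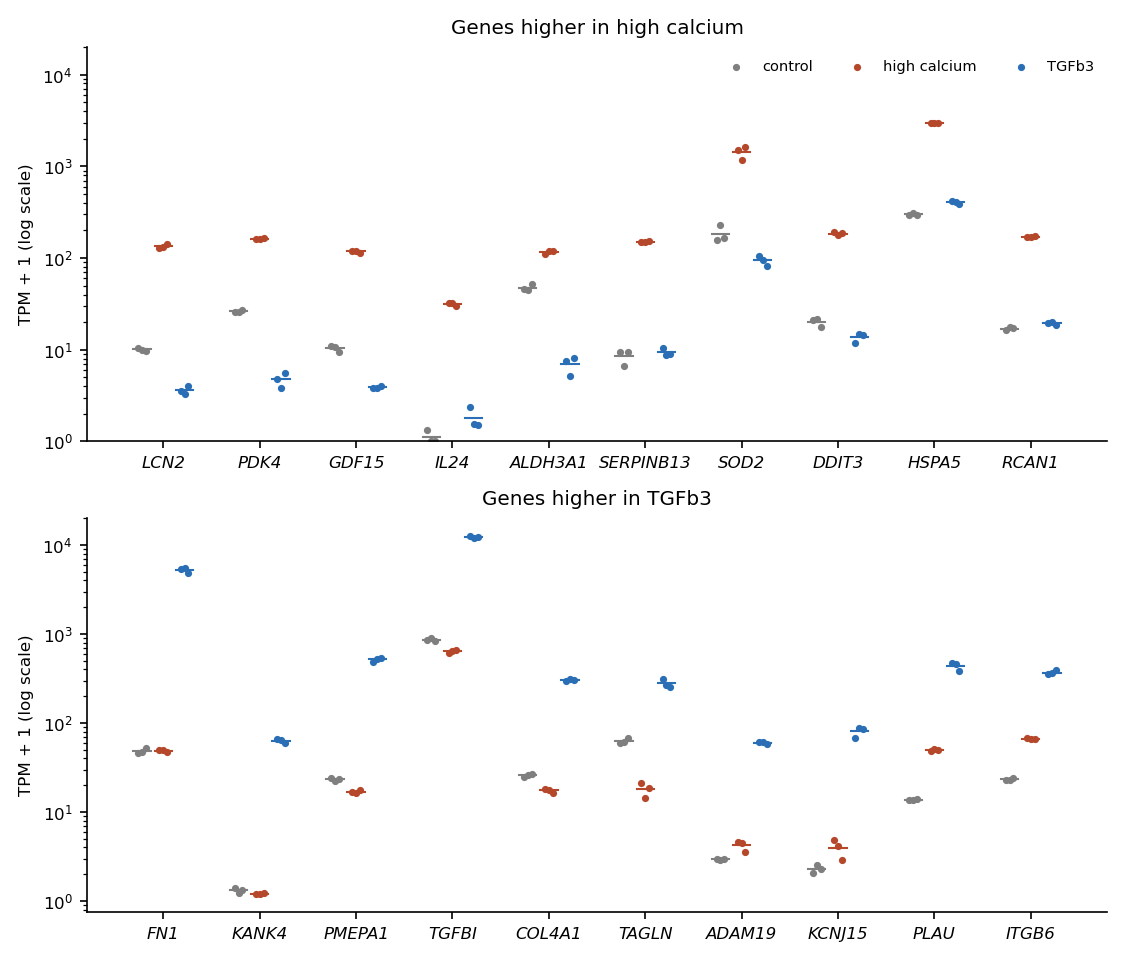
TPM + 1 on a log axis for 20 genes, one point a sample and a line at each group mean, with the controls in grey. In the upper panel high calcium lies above TGFb3 for each of the 10 genes, and in the lower panel TGFb3 lies above high calcium for each of the other 10.

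ER chaperone genes lay wholly on the high calcium side. All 22 tested genes of ER chaperones and ER-associated degradation were called higher in high calcium, with a median log2 difference of 1.52 against 0.27 over all tested symbols. After rescaling 21 of 22 were called higher in high calcium and 0 in TGFb3 (median 1.33). Their summed level was 19038 to 19226 TPM in the high calcium samples and 5313 to 5518 TPM in the TGFb3 samples. In all 22 the control mean was nearer the TGFb3 mean. DERL3 was below 1 TPM and was not tested.

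HSPA5 (chr9:125234853-125241330), which encodes BiP, the main ER chaperone of the HSP70 family, was at 2971, 2949 and 2966 TPM in high calcium and 417, 409.6 and 389 TPM in TGFb3 (log2 2.87 ± 0.038, limma adjusted p = 1.0e-11). HSP90B1, the ER member of the HSP90 family, was at 6383, 6280.0 and 6372 TPM and 1353, 1407 and 1383 TPM (log2 2.20 ± 0.039). MANF, a secreted ER-stress protein, was at 769, 757 and 768 TPM and 142, 152 and 130.4 TPM (log2 2.43 ± 0.056). High calcium samples were tightly grouped and well above the TGFb3 samples for all 3 genes. The smallest differences of the list were in SELENOS (0.32), DERL1 (0.46) and EDEM1 (0.52), genes of the degradation branch. HERPUD1, of the same branch, differed by 2.14.

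The promoters of some of these genes hold the ER stress element. The list was drawn up as genes of the unfolded protein response, which acts through that element. Its share of holders is therefore a description and no independent evidence. The ER stress element was searched as CCAAT, then 9 bases, then CCACG, and its variant ERSE-II as ATTGG, then 1 base, then CCACG, on both strands of the 300 bases around each start (250 before it, 50 from it on) in RefSeq promoters of GRCh38.p14. The sites are shown so that the letters common to them can be read beside the values. Each is read 5′ to 3′ on the strand that holds the motif, with 5 bases on either side and the fixed parts in capitals, and distances are from the start of the gene.
HSPA5, chr9:125241391-125241409, bases -66 to -48: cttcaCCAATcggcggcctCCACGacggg
HSP90B1, chr12:103930216-103930234, bases -194 to -176: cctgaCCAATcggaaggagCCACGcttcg
HSP90B1, chr12:103930321-103930339, bases -89 to -71: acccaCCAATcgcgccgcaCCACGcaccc
CALR, chr19:12938384-12938402, bases -225 to -207: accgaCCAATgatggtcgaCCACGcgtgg
CANX, chr5:179698778-179698796, bases -151 to -133: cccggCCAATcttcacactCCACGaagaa
PDIA6, chr2:10812853-10812871, bases -86 to -68: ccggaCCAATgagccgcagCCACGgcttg
CRELD2, chr22:49918554-49918572, bases -80 to -62: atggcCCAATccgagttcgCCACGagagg
XBP1, chr22:28800603-28800621, bases -52 to -34: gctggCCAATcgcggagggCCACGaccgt
FICD, chr12:108515123-108515141, bases -154 to -136: aacaaCCAATgggagtggcCCACGgcgcg
ERO1B, chr1:236282183-236282201, bases -243 to -225: ggcggCCAATgaggcgggaCCACGcgggc
SERP1, chr3:150546710-150546728, bases -232 to -214: aaacaCCAATtcgctgtctCCACGcatga
The ERSE-II sites of 3 further genes of the chaperone and degradation list follow in the same form.
HERPUD1, chr16:56932025-56932035, bases -117 to -107: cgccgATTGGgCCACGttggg
HYOU1, chr11:119057380-119057390, bases -185 to -175: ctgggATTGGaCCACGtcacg
HYOU1, chr11:119057274-119057284, bases -79 to -69: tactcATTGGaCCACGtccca
SDF2L1, chr22:21642114-21642124, bases -188 to -178: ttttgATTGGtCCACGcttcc

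Of the 20 chaperone-list genes with a promoter in the table, 6 hold an ERSE (30%) and 3 others an ERSE-II (15%), against 25 (0.0916%) and 19 (0.0696%) of all 27305 genes in it. Read the other way, from the motif to the values, 16 tested symbols hold an ERSE. Of these, 14 were called higher in high calcium, SYNPO higher in TGFb3 (-1.45) and ZNF17 was not called (0.13), with a median log2 difference of 1.15 and the same split after rescaling (median 0.95). Among all 9511 tested symbols with a promoter, 53.5% were called higher in high calcium, 16.8% in TGFb3, and the median was 0.26. Of the 14, 8 are not in the chaperone list. FICD (2.16), which modifies BiP, ERO1B (1.92), an ER oxidase, SERP1 (1.15) and XBP1 (1.12) serve the ER. TMEM120A (0.82), ALG12 (0.80), TRIM5 (0.76) and EIF2A (0.75) complete them. CRELD2 and ALG12 share a single site between their divergent starts, as do SERP1 and EIF2A. ERSE-II was less one-sided, with 9 of 14 carriers called higher in high calcium and 5 in TGFb3 (6 and 5 after rescaling).

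**Figure D3:**
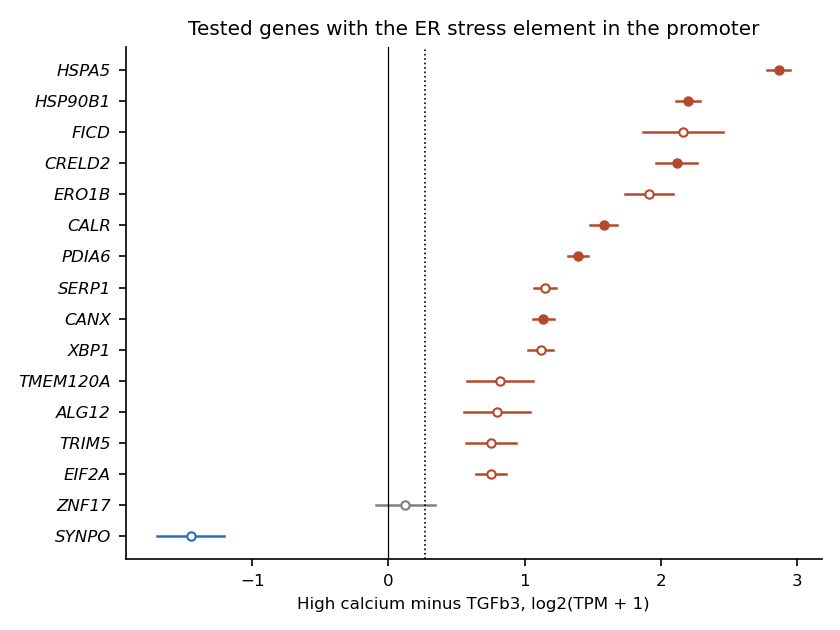
Log2 difference of the tested genes with an ERSE in their promoter, with 95% confidence intervals. Genes with an ERSE-II are not drawn. Filled points belong to the chaperone list and the dotted line is the median of all tested symbols, 0.27. HSPA5 at 2.87 is at the top and SYNPO at -1.45 at the other end.

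The 250 bases before the start of HSPA5 (chr9:125241344-125241593, minus strand), which has the largest difference within the chaperone list, place its element near the start. The whole element is in capitals.
HSPA5: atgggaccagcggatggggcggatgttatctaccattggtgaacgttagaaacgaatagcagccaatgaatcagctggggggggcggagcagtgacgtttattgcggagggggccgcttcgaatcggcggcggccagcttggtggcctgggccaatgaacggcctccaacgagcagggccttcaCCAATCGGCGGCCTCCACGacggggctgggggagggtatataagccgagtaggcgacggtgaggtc

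Sensors and transcription factors of the response lay on the same side. All 9 tested were called higher in high calcium (median 0.81), and 7 after rescaling (median 0.62). ERN1, the gene of IRE1, differed by 1.24 ± 0.089, EIF2AK3, the gene of PERK, by 1.08 ± 0.068, and XBP1, the factor that IRE1 activates by splicing, by 1.12 ± 0.041 on the log2 scale. XBP1 was at 349.7, 349 and 355 TPM in high calcium and 168, 155 and 161 TPM in TGFb3, without overlap.

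The ATF4 and CHOP axis lay wholly on the high calcium side as well. All 26 tested genes were called higher in high calcium (median 1.09), 25 after rescaling (median 0.89). DDIT3 was at 190.0, 175 and 186 TPM in high calcium and 10.7, 13.9 and 13.5 TPM in TGFb3 (log2 3.76 ± 0.10, limma adjusted p = 1.4e-09). ASNS, asparagine synthetase, was at 438, 433 and 466 TPM and 97.7, 110.5 and 133 TPM (log2 1.97 ± 0.10), and ATF3 at 47.2, 53.9 and 51.6 TPM and 16.2, 12.6 and 11.2 TPM (log2 1.87 ± 0.16). The groups did not overlap for any of these, and for ASNS the control mean of 160.1 TPM lay between the treatments. The list held GDF15, described above, and the serine synthesis gene PSAT1 (1.71), the amino acid transporter gene SLC7A11 (1.32) and ATF4 itself (0.50).

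Transport out of the ER followed in part. Of 24 genes of COPI and COPII coats and the translocon, 21 were called higher in high calcium and 0 in TGFb3 (median 0.49), with 16 and 2 after rescaling. SEC23B (1.52 ± 0.037) and SEC24D (1.35 ± 0.056), subunits of the COPII coat, differed most. Cytosolic heat shock genes were divided: 9 of 18 were called higher in high calcium and 6 in TGFb3 (median 0.17). After rescaling these were 6 and 6. HSPB1, a small heat shock protein, was at 161, 165 and 149 TPM in high calcium and 837, 723 and 660.0 TPM in TGFb3 (log2 -2.22 ± 0.092), with all TGFb3 samples above. HSPA4L (1.06 ± 0.073) and the mitochondrial chaperonin HSPD1 (0.85 ± 0.040) lay on the high calcium side.

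Genes that sense and carry calcium were mixed, with one large exception. RCAN1, a feedback inhibitor of the calcium-activated phosphatase calcineurin and a target of its NFAT factors, was at 170.3, 169 and 171 TPM in high calcium and 18.8, 18.96 and 17.7 TPM in TGFb3, against a control mean of 15.99 TPM. The TGFb3 samples were near the controls and the high calcium samples far above (log2 3.14 ± 0.049, limma adjusted p = 4.0e-11). Its paralogs went the other way, RCAN2 at -1.04 ± 0.16 and RCAN3 at -0.83 ± 0.089. Of 8 tested calcineurin and NFAT genes 4 were called higher in high calcium and 3 in TGFb3, and RCAN1 was the only call on the high calcium side left after rescaling.

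Of 21 tested calcium pumps, channels and sensors, 12 were called higher in high calcium and 2 in TGFb3 (median 0.21), or 9 and 5 after rescaling. Over all tested symbols the shares as deposited were 50.4% and 16.2% and the median 0.27, so the list shows no lean of its own to high calcium. ORAI3, a pore subunit of store-operated entry (1.56 ± 0.29), ATP2B1, a plasma membrane calcium pump (1.53 ± 0.057), and STIM1, the ER calcium sensor (0.89 ± 0.062), were higher in high calcium. ITPR2, an ER calcium release channel (-0.71 ± 0.072), was higher in TGFb3. The calcium-binding S100 genes split, 5 of 13 higher in high calcium and 7 in TGFb3, the same counts after rescaling. S100A8 and S100A9, which form calprotectin, differed by 1.27 ± 0.13 and 1.26 ± 0.095, while S100A2 differed by -1.41 ± 0.078. S100A8 was at 182, 182 and 174 TPM in high calcium and 90.5, 71.7 and 61.4 TPM in TGFb3 with a control mean of 235 TPM, so the TGFb3 samples were the low ones. S100A2 was at 1634, 1660.2 and 1598 TPM and 4854, 4129.6 and 4098 TPM with a control mean of 2254 TPM, here with the TGFb3 samples as the high ones. Of 9 annexin genes 5 (4 rescaled) were called higher in high calcium, ANXA3 by the most (1.33 ± 0.055), and 2 (3 rescaled) in TGFb3. Of these ANXA2 (-0.13) turns to 0.29 under quantile scaling, and its call as deposited is lost without any 1 of the high calcium samples, TGFb3 replicate 1 or 2, or control replicate 1.

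Lysosomal proteases divided by member. Of 11 tested cathepsin genes 6 were called higher in high calcium and 5 in TGFb3, or 5 and 5 after rescaling. CTSB, a cysteine cathepsin, was at 116, 139.5 and 123 TPM in high calcium and 389, 379 and 376 TPM in TGFb3 (log2 -1.59 ± 0.073). CTSD, the main aspartic cathepsin, was at 173, 163 and 157 TPM and 93.7, 74.3 and 71.6 TPM (log2 1.04 ± 0.12). CTSL, a cysteine cathepsin like CTSB, was at 187, 186 and 203 TPM and 153, 157 and 131 TPM (log2 0.39 ± 0.066). CTSB was thus higher in every TGFb3 sample, and CTSD and CTSL were higher in every high calcium sample, CTSL without a call under the median ratio scaling (0.099) or with the replicate block after rescaling (0.19). CTSC (-1.32) and CTSV (-1.82) went with CTSB, and CTSO (1.25) and CTSH (0.80) with CTSD.

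Other hydrolases of the lysosome leaned to high calcium, 21 of 29 called there and 2 in TGFb3 (median 0.51; 18 and 2 after rescaling). LIPA, which hydrolyses cholesteryl esters, was at 268, 261 and 270.1 TPM in high calcium and 84.9, 88.5 and 87.6 TPM in TGFb3 (log2 1.60 ± 0.034). FUCA1, a fucosidase, differed by 2.65 ± 0.18 from a TGFb3 mean of 0.163 TPM. The sulfatases ARSA (-0.46 ± 0.13) and ARSB (-0.78 ± 0.11) were the calls on the TGFb3 side. The membrane proteins LAMP1 (0.10) and LAMP2 (-0.066) were not called as deposited. LAMP2 was called higher in TGFb3 after rescaling. LAMP1 was called higher in TGFb3 under the median ratio and quantile scalings, and in high calcium without TGFb3 replicate 1 (0.13). Of 21 membrane protein genes 7 were called higher in high calcium and 5 in TGFb3, or 4 and 6 rescaled.

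Among 18 subunits of the proton pump that acidifies lysosomes, 13 were called higher in high calcium and 2 in TGFb3. After rescaling these were 10 and 4. The 2 isoforms of its C subunit went apart: ATP6V1C2 was at 47.1, 49.5 and 49.1 TPM in high calcium and 4.04, 4.73 and 3.005 TPM in TGFb3 (log2 3.35 ± 0.13), whereas ATP6V1C1 was at 40.9, 48.4 and 40.03 TPM and 65.7, 61.98 and 63.7 TPM (log2 -0.56 ± 0.067). High calcium was the higher group for the first isoform and TGFb3 for the other. Of 31 autophagy genes 18 were called higher in high calcium and 3 in TGFb3, beside 50.4% and 16.2% of all tested symbols. The counts became 7 and 8 after rescaling. The receptor gene SQSTM1 (1.86 ± 0.065) and WIPI1 (1.24 ± 0.053) were high in high calcium, the kinase gene ULK1 (-0.83 ± 0.11) in TGFb3. Among 10 genes of MiT/TFE factors and their regulators 4 were called higher in high calcium and 1 in TGFb3, or 3 and 3 rescaled. TFEB itself was not called (0.10 as deposited and -0.065 rescaled). Galectin and membrane repair genes gave 6 and 3 calls of 15, or 2 and 8 rescaled, with LGALS1 (-0.62 ± 0.077) as the most abundant of those named.

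Components of the TGF-beta pathway were higher in TGFb3 in part. Of 23 ligands, receptors and SMADs, 11 were called higher in TGFb3 and 7 in high calcium (median -0.13; 13 and 5 rescaled). The ligand genes split: TGFB1 was higher in TGFb3 (-0.69 ± 0.079), while TGFB2 (1.19 ± 0.11) and TGFB3 (0.92 ± 0.25) were higher in high calcium. TGFB3 was at 1.12, 3.06 and 2.94 TPM in high calcium and 0.606, 0.824 and 0.692 TPM in TGFb3, lower in every sample labelled with that ligand, a call that quantile scaling removes. TGFBR1, the type I receptor, was at 32.3, 32.8 and 34.6 TPM and 136, 155 and 156 TPM (log2 -2.13 ± 0.057), and TGFBR2, the type II receptor, differed by -0.53 ± 0.035. Both receptors were higher in every TGFb3 sample. LTBP2, a latent TGF-beta binding family member, differed by -3.55 ± 0.062, and SMAD1, a BMP-pathway SMAD, by 0.85 ± 0.056.

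Direct targets of SMAD signalling lay on the TGFb3 side. Of 27 tested, 23 were called higher in TGFb3 and 1 in high calcium (median -1.75; 24 and 1 rescaled), with sums of 1380.4 to 1425 TPM in high calcium and 17703 to 18199.8 TPM in TGFb3. In all 23 the control mean was nearer the high calcium mean. SMAD7, the inhibitory SMAD, was at 4.14, 4.91 and 4.96 TPM and 16.7, 16.98 and 15.3 TPM (log2 -1.61 ± 0.094), and SKIL, a SMAD corepressor, at 30.3, 29.97 and 28.998 TPM and 105, 117 and 124 TPM (log2 -1.92 ± 0.11). Neither overlapped. The exception was TGIF1, a corepressor of SMAD2 and SMAD3, at 126, 128 and 119 TPM in high calcium and 66.1, 63.7 and 63.96 TPM in TGFb3 (log2 0.93 ± 0.063). CDKN1A, a cyclin-dependent kinase inhibitor and SMAD target, was not called (0.074 ± 0.069 as deposited and -0.12 rescaled), with overlapping values of 108, 105 and 102 TPM and 108, 101 and 90.5 TPM, both above a control mean of 33.4 TPM. CDKN2B, LDLRAD4 and MMP13 were below 1 TPM and not tested.

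ID genes, targets of BMP signalling, were higher in TGFb3 for ID2 (-1.23 ± 0.12) and ID3 (-1.41 ± 0.065), with ID1 not called as deposited (-0.070) and called higher in TGFb3 after rescaling, and as deposited without TGFb3 replicate 2. BAMBI, a decoy receptor, was at 36.8, 37.9 and 42.4 TPM in high calcium and 9.13, 7.43 and 7.03 TPM in TGFb3 (log2 2.18 ± 0.10), with the TGFb3 samples near the control mean of 6.98 TPM. The whole list gave 2 calls for high calcium and 4 for TGFb3 of 7 tested, or 2 and 5 rescaled. SMAD elements were rare in these windows: none of the 20 direct targets with a promoter held the SMAD box GTCTAGAC (0.256% of all genes), and LDLRAD4 alone held the CAGA box AGCCAGACA (0.363%).

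Matrix genes were mostly higher in TGFb3. Of 16 matricellular genes 11 were called there and 2 in high calcium (median -1.51; 12 and 1 rescaled). FBLN5, an elastic fibre protein, differed by -2.74 ± 0.13 and THBS1, which activates latent TGF-beta, by -1.27 ± 0.077. NOV, a CCN family member, was the largest exception at 2.20 ± 0.11. TNC, tenascin C, was not called as deposited or rescaled (-0.17 ± 0.14 as deposited), though it was called higher in TGFb3 under median ratio and quantile scaling and without TGFb3 replicate 3 (-0.32, limma adjusted p = 0.0400): it stood at 35.3, 32.3 and 28.7 TPM in high calcium and 42.2, 38.4 and 28.9 TPM in TGFb3, overlapping, and both above a control mean of 0.885 TPM. Collagen and crosslinking genes gave 9 calls for TGFb3 and 5 for high calcium of 19 (13 and 4 rescaled). The basement membrane chains COL4A1 (described above) and COL4A2 (-2.66 ± 0.068) and the fibrillar COL1A1 (-2.23 ± 0.20) were higher in TGFb3. COL12A1, a fibril-associated collagen, was at 186, 191 and 178 TPM in high calcium and 75.96, 79.4 and 71.3 TPM in TGFb3 (log2 1.28 ± 0.055), again both above the control mean of 39.2 TPM.

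LAMA3 (-1.42 ± 0.044) and LAMB3 (-1.15 ± 0.068), which encode chains of the anchoring laminin of epithelia, were both higher in TGFb3. LAMA3 was at 721, 725 and 684 TPM in high calcium and 1872, 1987 and 1835 TPM in TGFb3 against a control mean of 181, and LAMB3 at 259, 266 and 242 TPM and 597, 581 and 534 TPM against 58.2. For these genes the high calcium samples too lay above the control mean. Over the list, 4 of 10 were called higher in TGFb3 and 3 in high calcium, or 5 and 2 rescaled. All 13 integrin genes tested were called, 10 higher in TGFb3 and 3 in high calcium, the same rescaled (median -1.32 as deposited). ITGB6, whose product activates latent TGF-beta, was at 66.4, 64.7 and 64.3 TPM in high calcium and 350.0, 359 and 394 TPM in TGFb3 (log2 -2.48 ± 0.049). ITGB3 (-2.67 ± 0.15) and ITGA2 (-1.79 ± 0.044) went the same way, and ITGB8 (0.97 ± 0.075), ITGA10 (0.66 ± 0.18) and ITGA3 (0.61 ± 0.058) the other, ITGA10 without a call under the median ratio or quantile scaling. Of 15 matrix protease and inhibitor genes 9 (12 rescaled) were called higher in TGFb3, among them PLAU, urokinase (-3.13 ± 0.069). Only ADAM12 (0.44 ± 0.093) was called higher in high calcium, a call that the median ratio (0.18) and quantile (0.14) scalings remove.

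Of 22 contractile and actin-binding genes 17 were called higher in TGFb3 and 2 in high calcium (median -0.78), the same counts rescaled. TPM1, tropomyosin 1, was at 147, 151 and 156 TPM in high calcium and 1450.4, 1489 and 1375 TPM in TGFb3 (log2 -3.24 ± 0.039), and MYL9, a myosin light chain, at 9.83, 8.77 and 9.98 TPM and 67.4, 61.2 and 46.6 TPM (log2 -2.48 ± 0.13). Every TGFb3 sample was above every high calcium sample. ACTA2, smooth muscle actin, was on the other side at 14.9, 13.9 and 10.7 TPM and 7.72, 8.81 and 9.296 TPM (log2 0.55 ± 0.12), low in both, and it overlaps other genes. Its call is lost under the median ratio (0.29) and quantile (0.27) scalings. Beside these, ACTB was itself higher in TGFb3 (-0.65 ± 0.057) and GAPDH in high calcium (0.41 ± 0.061), but ACTB was not called under the quantile scaling (-0.036), nor GAPDH under the median ratio scaling (0.12).

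Genes of the epithelial-mesenchymal transition (EMT) were mostly on the TGFb3 side, 7 of 12 against 3, or 8 against 3 rescaled. SNAI2, a repressor of epithelial genes, was at 39.1, 39.7 and 37.97 TPM in high calcium and 239, 270.1 and 285 TPM in TGFb3 (log2 -2.73 ± 0.072). SNAI1 differed by -2.73 ± 0.15 from a high calcium mean of 0.278 TPM, the N-cadherin gene CDH2 by -1.99 ± 0.088 and vimentin (VIM) by -0.94 ± 0.068. TWIST1 (0.70 ± 0.12) and TWIST2 (0.45 ± 0.087) were on the high calcium side, TWIST2 without a call under the median ratio or quantile scaling. The E-cadherin gene CDH1 was slightly higher in TGFb3 (-0.25 ± 0.060) and above its control mean in both: 154, 155 and 149.8 TPM in high calcium, 191, 186 and 169 TPM in TGFb3 and 94.3 TPM in controls.

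Of 25 epithelial junction genes 9 were called higher in high calcium and 12 in TGFb3 (8 and 14 rescaled). The shares of all tested symbols were 50.4% and 16.2%. ESRP1, an epithelial splicing regulator, was at 24.1, 17.1 and 21.9 TPM in high calcium and 0.649, 1.08 and 0.498 TPM in TGFb3 (log2 3.66 ± 0.19), with a control mean of 0.667 TPM. EPCAM was at 391, 392 and 409 TPM and 113, 118 and 124 TPM (log2 1.74 ± 0.050), with a control mean of 294 TPM. For ESRP1 the high calcium samples stood apart from the other 2 groups, and for EPCAM the TGFb3 samples did. CLDN1 (1.70 ± 0.074) was higher in high calcium, and CLDN4 (-0.90 ± 0.15), CGN (-1.35 ± 0.11) and OVOL1 (-1.49 ± 0.15) were higher in TGFb3. Desmosome genes gave 3 and 2 calls of 9, with the cadherins DSG3 (1.09 ± 0.041) and DSC2 (-1.31 ± 0.076) on opposite sides. After rescaling these were 2 and 6.

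Keratinocyte differentiation genes lay on both sides. Of 20 tested, 11 were called higher in high calcium and 6 in TGFb3 (median 0.87), or 10 and 8 rescaled. SPRR1A, a cornified envelope precursor, was at 184, 220.1 and 215 TPM in high calcium and 32.7, 16.8 and 21.2 TPM in TGFb3 (log2 3.13 ± 0.20), and KRT80 at 27.3, 28.1 and 28.02 TPM and 3.67, 2.86 and 2.44 TPM (log2 2.86 ± 0.13). IVL, involucrin, another envelope precursor, was at 0.241, 0 and 0.0645 TPM and 13.1, 11.7 and 11.3 TPM (log2 -3.56 ± 0.17). SPRR1A and KRT80 were thus higher in every high calcium sample and IVL in every TGFb3 sample. TGM2 (-1.28 ± 0.061) and KRT6B (-1.70 ± 0.16) lay with IVL. Reads of the SPRR2 and KRT6 copies are near-identical and their split is uncertain. Of 16 basal genes 6 were called higher in high calcium and 8 in TGFb3, or 5 and 9 rescaled. KRT5 (0.63 ± 0.058) and KRT15 (1.69 ± 0.15) were higher in high calcium. ITGA6 (-1.32 ± 0.037) and ITGB4 (-1.32 ± 0.080), the hemidesmosome integrin, were higher in TGFb3, and KRT14 was not called (0.26).

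Luminal and milk genes were one-sided. All 13 of those tested, of 22 listed, were called higher in high calcium (median 0.97), 9 after rescaling. WFDC2, a secreted inhibitor-like protein, was at 156, 152 and 136 TPM in high calcium and 22.7, 17.8 and 14.5 TPM in TGFb3 (log2 2.97 ± 0.15), and XDH, xanthine dehydrogenase of the milk fat globule, at 32.3, 32.8 and 30.5 TPM and 8.15, 7.07 and 6.62 TPM (log2 1.99 ± 0.094). For WFDC2 the control mean of 53.3 TPM lay between the groups, and for XDH it was 6.199 TPM, beside the TGFb3 samples. The milk protein genes CSN2, CSN3 and LALBA were below 1 TPM and not tested.

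**Figure D4:**
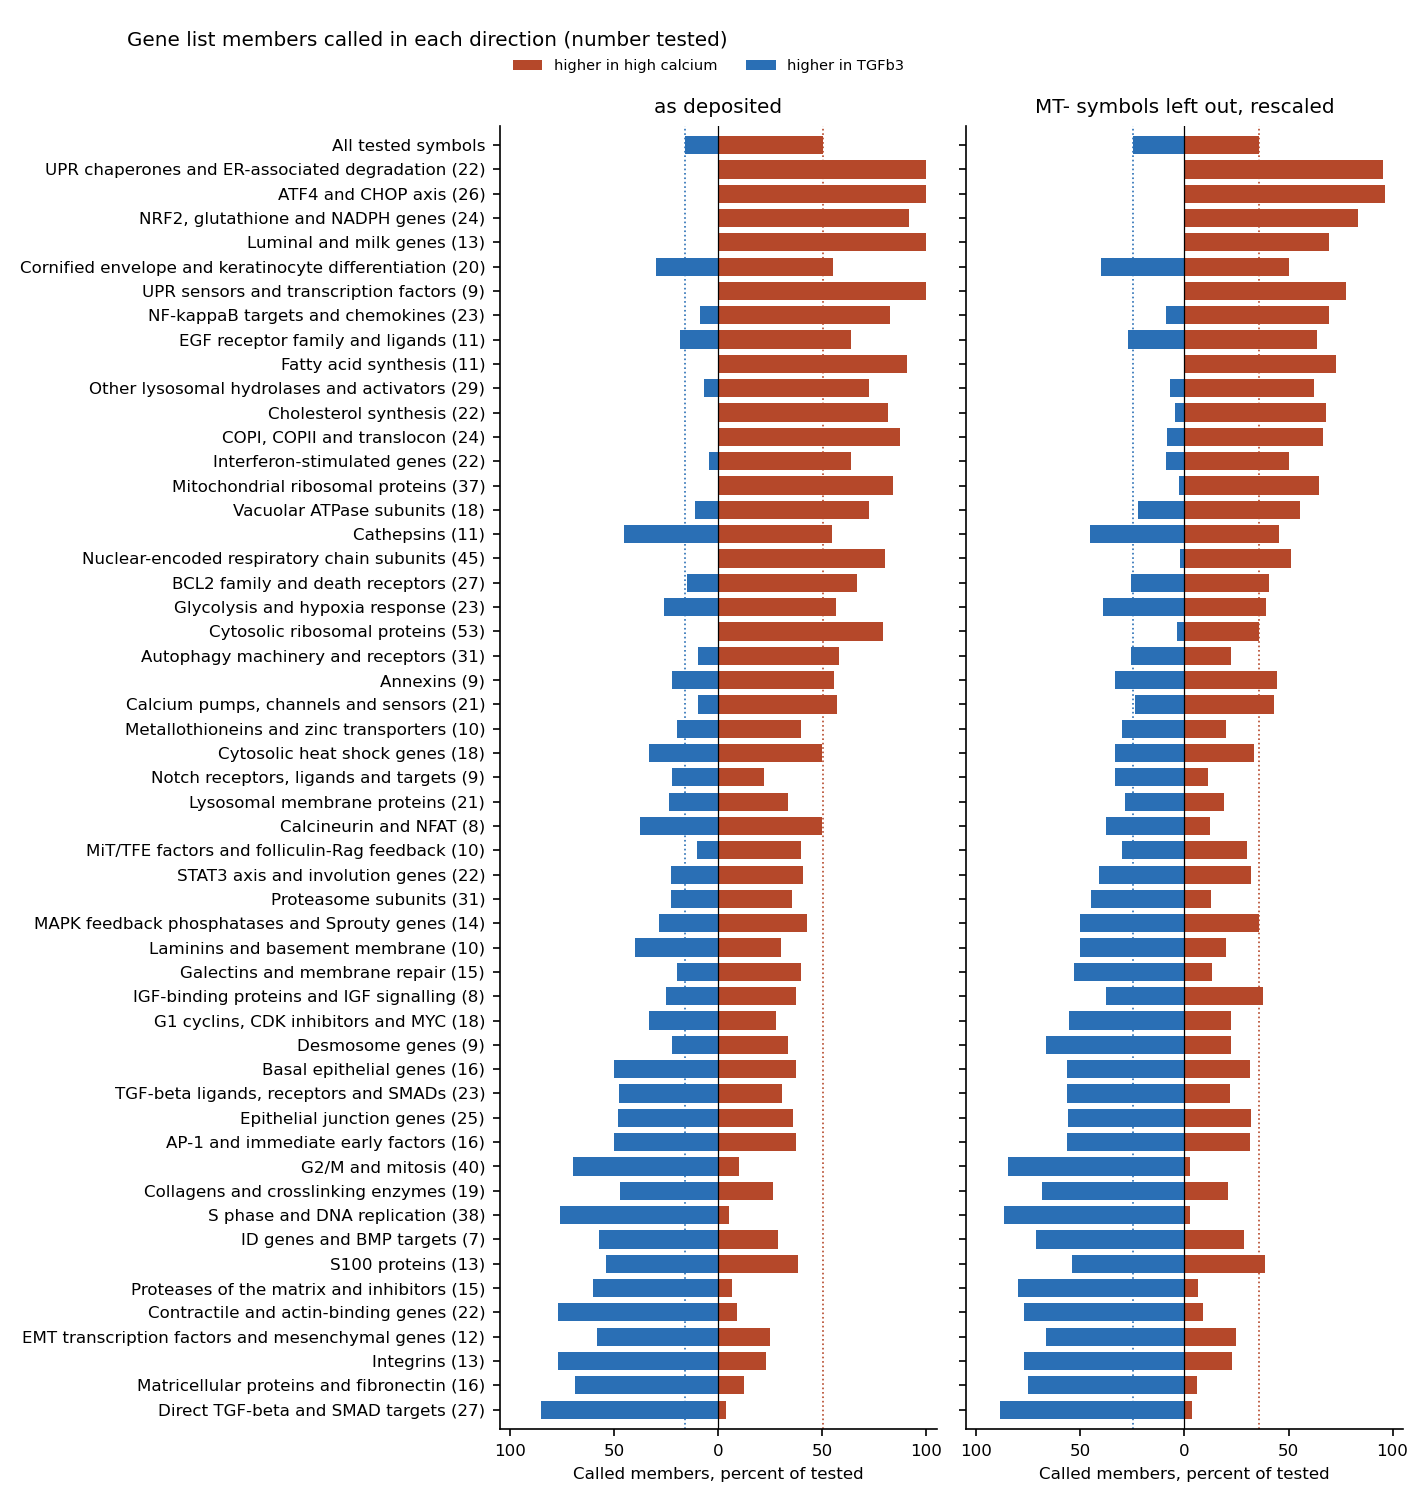
For each gene list with at least 5 tested members, other than those of the mitochondrial genome, the percentage of its tested members called higher in high calcium (bars to the right) and in TGFb3 (to the left), in a panel as deposited and a panel rescaled; dotted lines are the percentages over all tested symbols. Lists are ordered by their median log2 difference. The chaperone, sensor, ATF4 and luminal lists reach 100% on the high calcium side as deposited, and the direct SMAD targets have the widest bar on the other.

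Inflammatory genes were mostly higher in high calcium. Of 23 NF-kappaB targets and chemokines 19 were called there and 2 in TGFb3 (median 0.73; 16 and 2 rescaled). CXCL2, a neutrophil chemokine, was at 159, 154 and 148 TPM in high calcium and 20.003, 20.8 and 17.1 TPM in TGFb3 (log2 2.93 ± 0.072), and CXCL8 at 429.9, 429.7 and 448 TPM and 147, 151 and 125 TPM (log2 1.63 ± 0.076). CXCL8 in TGFb3 was still above its control mean of 38.5 TPM, whereas CXCL2 was near its control mean of 25.02 TPM. CFB, complement factor B, differed by 3.62 ± 0.17, while IL1B (-0.23 ± 0.052) and NFKBIZ (-0.43 ± 0.10) were higher in TGFb3. The summed leukocyte markers given above move the same way, with PTPRC at 0, and their part in this result was not tested.

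STAT3-linked genes were divided, 9 and 5 of 22, or 7 and 9 after rescaling. CEBPD (2.62 ± 0.053), CLU (3.03 ± 0.11), CD14 (3.39 ± 0.13) and STAT3 (1.04 ± 0.052) were higher in high calcium, OSMR (-0.47 ± 0.044) and FOS (-1.34 ± 0.098) in TGFb3, and SOCS3 (0.14, or -0.030 rescaled) and LIF (0.35) were not called. LIF was called without TGFb3 replicate 2 (0.46). Interferon-stimulated genes gave 14 calls for high calcium and 1 for TGFb3 of 22 (median 0.47), or 11 and 2 rescaled. IFIT2 was at 21.1, 20.3 and 21.2 TPM in high calcium and 1.97, 1.81 and 1.902 TPM in TGFb3 (log2 2.92 ± 0.083), with IFIT3 (1.73 ± 0.13) and IFIT1 (1.72 ± 0.32) in the same direction and IFI44 (-0.34 ± 0.12) in the other. The IFI44 call is lost without high calcium replicate 1 or 2 or TGFb3 replicate 1 or 3, and with no filter on low levels.

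EGF receptor ligands differed by member. AREG was at 1522, 1601 and 1579.6 TPM in high calcium and 192, 206 and 205 TPM in TGFb3 (log2 2.96 ± 0.076), EREG at 132, 134 and 134 TPM and 13.8, 15.7 and 12.99 TPM (log2 3.15 ± 0.065), and BTC differed by 2.65 ± 0.078. All 3 were higher in every high calcium sample, and for AREG and EREG the control means of 564 and 40.1 TPM lay between the treatments. TGFA went the other way (-0.88 ± 0.069). The list gave 7 and 2 calls of 11, or 7 and 3 rescaled. The MAPK phosphatases were as divided (6 and 4 of 14, or 5 and 7 rescaled). DUSP5 was at 2.67 ± 0.088 and SPRY1 at 2.22 ± 0.23, against DUSP10 at -2.33 ± 0.10 and DUSP6 at -0.71 ± 0.079. Of 16 AP-1 and immediate early genes 6 (5 rescaled) were called higher in high calcium, with ATF3 given above and NR4A2 (2.09 ± 0.16). In TGFb3 8 (9 rescaled) were called higher, with JUNB (-1.53 ± 0.066) and EGR1 (-1.64 ± 0.097). EGR1 was nonetheless highest in the controls, at 37.4 TPM against 18.9, 18.6 and 22.5 TPM in TGFb3 and 5.18, 5.74 and 6.19 TPM in high calcium.

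Most proliferation genes were lower in high calcium than in TGFb3, and those named here were lower in both than in the controls. Of 38 S phase genes 29 were called higher in TGFb3 and 2 in high calcium (median -0.55; 33 and 1 rescaled). Of 40 G2/M genes 28 were called higher in TGFb3 and 4 in high calcium (median -0.26; 34 and 1 rescaled). MKI67, a marker gene of cycling cells, was at 51.7, 50.6 and 47.97 TPM in high calcium and 89.3, 92.8 and 93.8 TPM in TGFb3, against a control mean of 167 TPM (log2 -0.86 ± 0.043, limma adjusted p = 9.2e-08). GINS2, of the replicative helicase, was at 3.795, 3.82 and 3.56 TPM and 10.5, 10.6 and 10.7 TPM against 23.1 TPM (log2 -1.30 ± 0.068), and KIF11, a mitotic motor, at 36.6, 36.8 and 34.6 TPM and 57.9, 64.8 and 66.6 TPM against 102 TPM (log2 -0.79 ± 0.056). The order high calcium, TGFb3, control held for all 3 without overlap between the treatments. In all 29 S phase and all 28 G2/M genes called higher in TGFb3, the control mean was nearer the TGFb3 mean.

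Exceptions included CDC25B (0.67 ± 0.075) and CDC6 (0.45 ± 0.054), and CCNB2, MAD2L1 and RFC4, which were called higher in high calcium as deposited (0.22, 0.25 and 0.22), not called after rescaling, and turned to -0.063, -0.027 and -0.063 under the median ratio scaling. The letters TTTGAA, the core of the cell cycle homology region (CHR) of mitotic promoters, were found on either strand in the windows of 24 of 34 G2/M genes (70.6%), against 18.2% of all genes. Among all 1309 tested symbols with these letters, 47.4% were called higher in high calcium and 23.5% in TGFb3, against 53.5% and 16.8% of those with a promoter. The 250 bases before the start of MKI67 (chr10:128126424-128126673, minus strand) and of KIF11 (chr10:92592880-92593129, plus strand) are shown because both genes were among the larger differences of the list; the matches are in capitals, 2 in MKI67 and 1, on the other strand, in KIF11.
MKI67: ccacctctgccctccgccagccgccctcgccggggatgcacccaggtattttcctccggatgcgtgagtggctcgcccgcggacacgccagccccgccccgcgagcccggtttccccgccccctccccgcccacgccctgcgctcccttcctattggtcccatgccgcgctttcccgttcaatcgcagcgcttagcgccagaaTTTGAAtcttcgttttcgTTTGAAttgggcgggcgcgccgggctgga
KIF11: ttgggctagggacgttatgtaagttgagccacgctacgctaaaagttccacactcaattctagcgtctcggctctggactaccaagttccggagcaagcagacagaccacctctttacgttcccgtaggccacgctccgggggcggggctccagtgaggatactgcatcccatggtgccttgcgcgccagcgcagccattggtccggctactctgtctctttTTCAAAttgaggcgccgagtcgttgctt

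G1 regulators were divided, 5 and 6 of 18, or 4 and 10 after rescaling. CDK6 (-1.16 ± 0.082), CDK2 (-0.80 ± 0.040) and CCND1 (-0.60 ± 0.045) were higher in TGFb3. CDK4 (0.58 ± 0.074), MYC (0.52 ± 0.035) and the inhibitor gene CDKN1B (0.51 ± 0.050) were higher in high calcium. MYC was at 208, 209.6 and 211 TPM in high calcium and 146, 142 and 151 TPM in TGFb3, with a control mean of 216 TPM, so the TGFb3 samples were the low ones. Of 27 BCL2 family and death receptor genes 18 were called higher in high calcium and 4 in TGFb3 (11 and 7 rescaled). The pro-apoptotic genes HRK (1.91 ± 0.089), BBC3 (1.63 ± 0.11) and PMAIP1 (1.25 ± 0.071) were higher in high calcium. The anti-apoptotic MCL1 was at 553, 544 and 545 TPM in high calcium and 768, 775 and 843 TPM in TGFb3 (log2 -0.54 ± 0.043), with all TGFb3 samples above.

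Redox genes under NRF2, the factor that answers electrophiles, were higher in high calcium: 22 of 24 against 0 in TGFb3 (median 1.00; 20 and 0 rescaled). GCLC, the rate-limiting enzyme of glutathione synthesis, was at 205, 205 and 202 TPM in high calcium and 43.1, 39.6 and 45.9 TPM in TGFb3 (log2 2.23 ± 0.051). AKR1C1, an aldo-keto reductase, was at 169.7, 188 and 187 TPM and 15.001, 12.2 and 16.5 TPM (log2 3.56 ± 0.12), with the caution that its paralogs are near-identical. For GCLC the control mean of 116 TPM was between the groups. The iron storage genes FTH1 (2.08) and FTL (1.48) and the thioredoxin reductase gene TXNRD1 (2.04) went the same way, and HMOX1 was at -0.21 without a call.

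Lipid synthesis leaned to high calcium, 18 of 22 cholesterol genes and 10 of 11 fatty acid genes, with 0 and 0 in TGFb3. After rescaling these were 15 and 8, with 1 and 0 in TGFb3. HMGCS1 was at 1002, 1014 and 1021 TPM in high calcium and 432, 433 and 404 TPM in TGFb3 (log2 1.26 ± 0.044), HSD17B7 differed by 1.40 ± 0.087 and FASN, fatty acid synthase, by 0.84 ± 0.14. HMGCS1 in TGFb3 still lay above its control mean of 264 TPM. Of 23 glycolysis and hypoxia genes 13 were called higher in high calcium, with HK2 (2.27 ± 0.058) and ALDOC (1.90 ± 0.13), and 6 in TGFb3, with PKM (-0.52 ± 0.057) and LDHA (-0.38 ± 0.094). Rescaled, the split was 9 to 9.

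RNAs of the mitochondrial genome differed by kind and by position. All 13 mRNAs and 21 of 22 tRNAs were called higher in TGFb3, and both rRNAs and the tRNA between them were called higher in high calcium. MT-RNR2, the large rRNA, was at 51396, 51116 and 55089.8 TPM in high calcium and 9463, 9858 and 9786 TPM in TGFb3 (log2 2.44 ± 0.068), and MT-RNR1, the small one, differed by 2.31 ± 0.082. With MT-TV (0.37 ± 0.060) these are 3 adjacent genes, at 648 to 3229 of the mitochondrial sequence. MT-ND1, the first mRNA downstream of them, had the smallest difference of the mRNAs (-0.84 ± 0.073). MT-CO2 was at 2449, 2222 and 2368 TPM in high calcium and 30224, 30077 and 29584 TPM in TGFb3 (log2 -3.68 ± 0.066), with MT-ND5 (-3.68 ± 0.047), MT-ND3 (-3.66 ± 0.051), MT-ND6 (-3.50 ± 0.077), the light-strand mRNA, and MT-CYB (-3.05 ± 0.054) next. The mRNAs made up 4.94 ± 0.128% of TPM in high calcium and 21.0 ± 0.553% in TGFb3, the rRNAs 6.26 ± 0.252% and 1.17 ± 0.00726% (SD, n = 3). High calcium was thus the low group for mRNA and the high group for rRNA, and for MT-CO2, MT-ND3 and MT-ND5 the TGFb3 samples lay near the controls, whose means were 28298, 7428 and 6039 TPM. How rRNA and short tRNAs were selected in the libraries is not given in the sources used here.

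**Figure D5:**
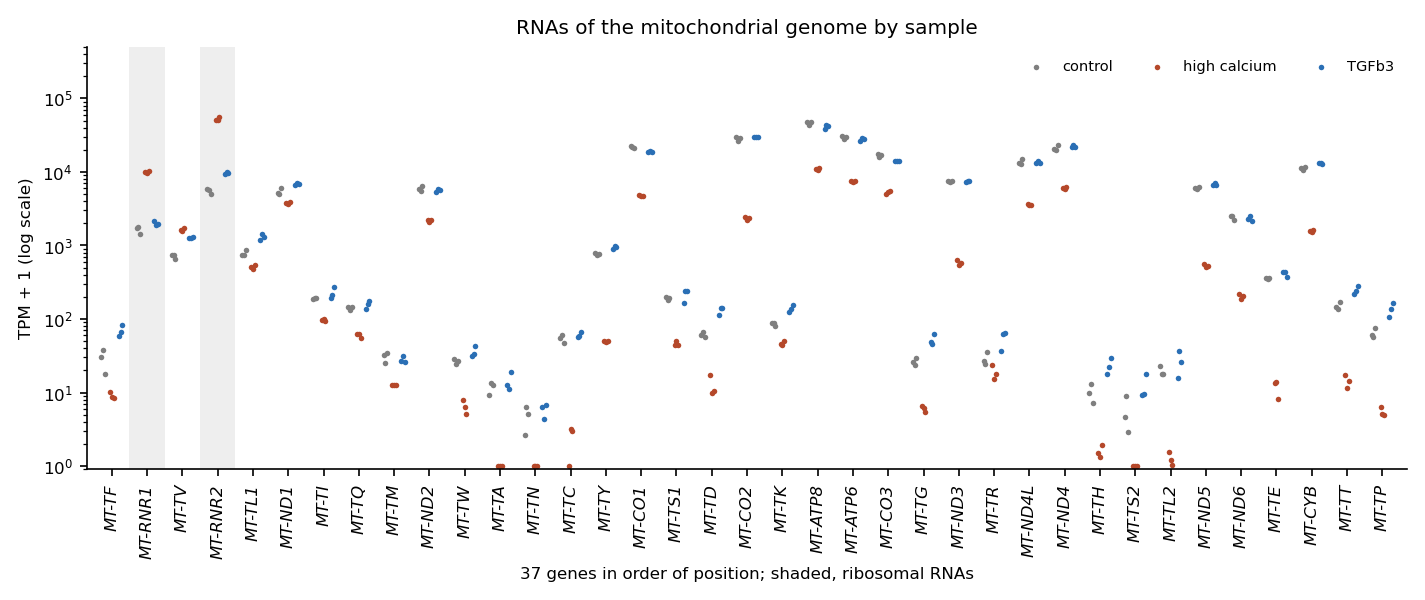
TPM + 1 on a log axis for the 37 genes of the mitochondrial genome in order of position, one point a sample, rRNA genes shaded. High calcium lies above TGFb3 at MT-RNR1, MT-TV and MT-RNR2 only, and below it at all other genes.

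Nuclear genes for mitochondria did not follow the mitochondrial mRNAs. Of 45 nuclear-encoded respiratory chain subunits 36 were called higher in high calcium and 0 in TGFb3 (median 0.38), with 23 and 1 rescaled (median 0.19). CYC1, cytochrome c1, was at 244, 249 and 237 TPM in high calcium and 153, 133 and 140.3 TPM in TGFb3 (log2 0.78 ± 0.055). Of 37 mitochondrial ribosomal protein genes 31 were called higher in high calcium and 0 in TGFb3 (24 and 1 rescaled). MRPL4 was at 42.3, 45.2 and 40.9 TPM and 23.6, 19.4 and 21.7 TPM (log2 0.96 ± 0.070), and MRPL12 differed by 0.87 ± 0.059. For CYC1 and MRPL4 the control means of 231 and 45.7 TPM were near the high calcium values, so the TGFb3 samples were the low ones. In all 31 mitochondrial ribosomal protein genes called higher in high calcium the control mean was nearer the high calcium mean.

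Cytosolic ribosomal protein genes gave 42 calls for high calcium and 0 for TGFb3 of 53, with a median of 0.30 close to that of all symbols. The count depended on the scale, with 19 and 2 rescaled, 6 and 7 under median ratios and 31 and 2 under quantiles. RPL34 (0.55 ± 0.16) and RPL14 (0.53 ± 0.12) were among those called higher in high calcium as deposited, and neither was called under the median ratio scaling. Proteasome subunits gave 11 and 7 calls of 31, and 4 and 14 rescaled. PSMD2, of the regulatory particle, was at 155, 158 and 158 TPM in high calcium and 348, 300.2 and 319 TPM in TGFb3 (log2 -1.03 ± 0.051), and PSMA5, of the core, differed by 0.64 ± 0.12. Metallothionein and zinc transporter genes gave 4 and 2 of 10, or 2 and 3 rescaled. MT1F (0.67 ± 0.11) and MT2A (-0.61 ± 0.044) were on opposite sides. Notch genes gave 2 and 2 of 9, or 1 and 3 rescaled. NOTCH1 (0.85 ± 0.14) was higher in high calcium and its ligand gene JAG1 (-0.78 ± 0.051) in TGFb3. IGF genes gave 3 and 2 of 8, or 3 and 3 rescaled. The binding protein genes IGFBP6 (1.46 ± 0.071) and IGFBP7 (-1.87 ± 0.076) lay apart, and the receptor gene IGF1R (-0.96 ± 0.073) lay with IGFBP7.

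Beside the control levels, a direct difference could lie with either treatment. Of the 7038 genes called higher in high calcium the control mean was nearer the TGFb3 mean in 4103 (58.3%), and among the 1498 with a log2 difference of 1 or more in 1026 (68.5%). Of the 2256 called higher in TGFb3 it was nearer the high calcium mean in 1475 (65.4%), and in 403 of the 508 large ones (79.3%). It lay between the treatment means in 3583 of the 7038 and 780 of the 2256. In the others both treatment means lay on the same side of it. These counts use the deposited values only. There the mitochondrial share was 22.7% in controls and in TGFb3 and 11.5% in high calcium, and its part in the counts was not tested. Chaperone and SMAD target genes fell in the larger parts by nearness. The control mean lay between the treatment means for 1 of the 22 chaperone genes and 9 of the 23 SMAD targets. For the proliferation genes called higher in TGFb3 and the mitochondrial ribosomal protein genes called higher in high calcium, the control mean was instead nearer the higher group.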

How the data were processed

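RNA of 9 MCF10A samples was read as paired ends of 101 bp, per the labels' protocols, and 1 table of TPM values for 58288 rows was deposited. The submitters' processing notes name HISAT2 and hg38. Not given in the sources used here are the version of HISAT2, the quantification program, the annotation and the strandedness. Per the values, TPM sums to 1000000 per sample and keeps no depth, so the depth and the counting error of each deposited value are unknown, and a large change in abundant RNA moves every other share. All 9 sample columns matched 1 label each, with 0 left unmapped.

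The 1932 rows sharing 253 symbols were summed. Values were tested as log2(TPM + 1), a scale that understates changes of low genes, with limma 3.58.1 in R 4.3.3: 1 linear model over 3 groups, empirical Bayes with an intensity trend, 6 residual degrees of freedom, the contrast high calcium minus TGFb3, two-sided, Benjamini-Hochberg adjustment over all symbols tested. For the rescaled version the 37 MT- symbols were left out and each sample scaled to 1000000. Single values per sample were compared by an exact permutation test (scipy 1.17.1). The members and the 59 gene lists were chosen with earlier results of these data known, so a list's counts and median are a description beside those of all symbols, and no list was tested. Named genes are the 15 largest in each direction called in both versions, where the higher group averaged 10 TPM or more, the samples did not overlap and the symbol was no clone name; up to 3 called members per list and direction; and a set named whatever their values; some genes that this rule names are not reported here. Members of the chaperone, ATF4, NRF2 and promoter sets named beyond that were chosen after their values were seen. Gene coordinates are those of GENCODE release 29 (hg38), where 55661 row identifiers matched with their version. Promoters are RefSeq's, GRCh38.p14, 35116 starts of 27305 genes, which hold 893 of 1162 different list members, and a gene counts as holding a motif if any of its starts does.

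The fit was tested on simulated data for this contrast, in which 200 of 13968 genes differed by a known fold. It called 16.5% of them at 1.25-fold, 64% at 1.5-fold, 88% at 2-fold and 96.5% at 4-fold. At these folds false calls made up 5.71%, 1.54%, 6.38% and 4.46% of all calls. These rates hold for 200 differing genes, whereas 9294 were called in the deposited values. The rate of false calls among that many, or under another scaling, was not tested. Alternatives were other pseudocounts, filters, scalings, samples in the fit, no intensity trend, a replicate block and each sample left out.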

Additional observations from a re-analysis of the deposited data

How the results depend on the processing

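Under median ratio scaling 4210 genes were called higher in high calcium and 4216 in TGFb3, and under quantile scaling 4364 and 4181, against 7038 and 2256 as deposited. Both scalings set the samples to a common centre, so near-equal counts are largely fixed by them. Leaving out MT- symbols gave 3415 in TGFb3. The cause of the change without MT- symbols was not tested. The mitochondrial share, a difference of -11.27 percentage points, was -16.06 for mRNAs and turned to 5.085 for rRNAs, both of which are parts of that share. With 1 sample left out in turn, calls ranged from 6526 to 7114 for high calcium and 2059 to 2309 for TGFb3, after rescaling from 4550 to 5099 and 3090 to 3509, and the share difference from -11.55 to -10.96 points.

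Of genes called under either setting, direction turned under median ratios for CCNB2 (-0.063), CDKN1A (-0.21), FBLN1 (-0.24), LAMP1 (-0.18), MAD2L1 (-0.027), PKP3 (-0.017) and RFC4 (-0.063), under quantiles for ANXA2 (0.29), FBLN1 (-0.19), LAMP1 (-0.11) and RFC4 (-0.019), and with MT- symbols left out for FBLN1 (-0.15, also with the replicate block). CDKN1A, KRT14, LAMP1, SOCS3 and TFEB, not called as deposited, also changed sign without a call under at least 1 of these scalings. Of 309 genes the naming rule picked, 298 were called, 269 kept direction and call under each of the 20 alternatives that tested them, and 277 under those of the 3 other scalings that did. The minimum of 5 TPM tested 284 of the 309, and leaving out MT- symbols 303. Same-numbered samples of the treatments did not deviate together (correlations across genes of -0.0037, -0.0135 and -0.0107). These values cannot show whether samples of the same number were handled together. With the replicate block 6924 and 2194 genes were called, and 4836 and 3286 after rescaling. The mitochondrial share difference with the block was -11.27. TPM keeps no depth, so how far depth limits low genes cannot be given.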

Other observations

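Gene classes outside the lists differed in how often they were called. Of 10640 protein-coding symbols 53.0% were called higher in high calcium and 17.2% in TGFb3. Of 475 antisense RNAs these shares were 48.8% and 8%, with a median log2 difference of 0.49 as deposited and 0.38 rescaled, and of 410 lincRNAs 51.2% and 12.4%, with medians of 0.49 and 0.40. Processed pseudogenes (476) were called in 23.1% and 4.83%, and sense intronic RNAs (113) in 21.2% and 16.8%, with medians of 0.20 and -0.02. After rescaling the shares were 37.4% and 26.6% of protein-coding symbols, 39.6% and 10.5% of antisense RNAs, 42.0% and 15.1% of lincRNAs, 12.6% and 7.14% of processed pseudogenes, and 11.5% and 23.0% of sense intronic RNAs, whose larger side thus changed. Without known strandedness, reads of antisense and intronic RNAs cannot be told apart from those of their host genes, and 1150 tested symbols had no class.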
